A study of Homo sapiens with 6 samples.

Results

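The human genes SLC28A1, SLC28A2, SLC28A3, SLC29A1, SLC29A2, SLC29A3 and SLC29A4 were followed in the polysome fractions of OSRC-2 cells, a clear cell renal cell carcinoma (ccRCC) line that lacks VHL function. The 7 genes were chosen by name, as the rows of the deposited comparison whose symbol is one of these nucleoside transporters, out of 30345 rows. Cells received either the HIF2 inhibitor PT2399 at 2 µM or vehicle for 72 h, with 3 biological replicate libraries in each group. HIF2 is a hypoxia-inducible transcription factor that accumulates when VHL is lost, so both groups carry the same VHL defect. Polysome sequencing reads the RNA in the sucrose gradient fractions heavier than the monosome peak. The comparison asks which of these RNAs in the pooled fractions depended on HIF2 activity. Both groups are of 1 cell line at 1 time, and total RNA is not part of this comparison, so less RNA per cell and fewer ribosomes per RNA cannot be told apart.

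Nucleosides are carried across membranes by these families in unlike ways. SLC28 proteins, the concentrative nucleoside transporters, couple uptake to the sodium gradient and sit at the apical membrane of epithelia such as the renal proximal tubule, where they reclaim filtered nucleosides. SLC29 proteins, the equilibrative nucleoside transporters, move nucleosides down their own gradient, either at the cell surface or, for some members, at intracellular membranes. Both families also carry nucleoside drugs used in cancer and viral disease.

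The values are those of the authors' deposited DESeq2 table, which holds a mean level, a log2 fold change and a standard error (SE) for each gene, and no column of a single library. Levels are normalized counts averaged over the 6 libraries. A gene counts as called where the adjusted p does not exceed 0.05 (two-sided Wald test, Benjamini-Hochberg adjustment over tested genes), and 95% intervals are normal intervals from the SE. Tested genes are those with an adjusted p, and genes of low level can hold a p-value without one. Of the 7 transporters, 4 were abundant enough to be tested and 3 were called, 1 higher and 2 lower. Over all 15634 tested genes 23.0% were called, 11.3% higher and 11.7% lower. A further limit of 1 on the absolute log2 fold change, set after the values were seen, left 1 transporter, SLC28A1, and 2.05% of tested genes. The 3 untested transporters had means below the lowest mean of any tested gene, 14.5 normalized counts.

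The cells carried the markers of their label. All 8 markers of renal tubule and ccRCC looked at, among them PAX8, CDH6 and VIM, were present at means of 258.1 to 170524 normalized counts, and the highest mean among 5 measured markers of leukocytes, endothelium and hepatocytes was 13.2. EPAS1, which encodes the inhibited HIF2 subunit, and the HIF targets NDRG1, EGLN3, VEGFA and CCND1 had log2 fold changes from -2.36 to -1.11. Of 2966 rows with a mean under 0.25, 1307 shared 6 recurring values, which give relative depths of 0.782 to 1.10 for the PT2399 libraries and 0.900 to 1.19 for the vehicle libraries. The other 1659 such rows held other values, so 1 factor a library does not describe every gene and reads per library were not recovered for the transporters.

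The promoter windows of the tested transporters are shown because the inhibitor acts on a transcription factor, and the HIF core letters ACGTG and GCGTG were searched in them on both strands. Each window runs from 250 bases before the RefSeq gene start to 50 bases after it (GRCh38.p14), 5′ to 3′ on the gene's strand, with matches in capitals. SLC28A1 (chr15:84884412-84884711, plus strand) and SLC29A1 (chr6:44219365-44219664, plus strand) are the genes that fell, SLC29A3 (chr10:71319009-71319308, plus strand) is the gene that rose, and SLC29A4 (chr7:5282693-5282992, plus strand) is the tested gene that was not called.
SLC28A1: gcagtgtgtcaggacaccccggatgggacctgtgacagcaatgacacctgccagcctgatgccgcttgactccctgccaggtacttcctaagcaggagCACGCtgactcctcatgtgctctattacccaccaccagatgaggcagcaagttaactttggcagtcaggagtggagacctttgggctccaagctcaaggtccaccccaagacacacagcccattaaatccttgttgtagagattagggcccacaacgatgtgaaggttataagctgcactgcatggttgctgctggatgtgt
SLC29A1: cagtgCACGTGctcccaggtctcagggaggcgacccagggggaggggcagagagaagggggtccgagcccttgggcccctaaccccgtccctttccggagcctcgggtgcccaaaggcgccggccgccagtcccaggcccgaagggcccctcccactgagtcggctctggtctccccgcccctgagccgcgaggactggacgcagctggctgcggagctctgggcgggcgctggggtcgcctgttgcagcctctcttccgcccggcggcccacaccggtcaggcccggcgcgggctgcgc
SLC29A3: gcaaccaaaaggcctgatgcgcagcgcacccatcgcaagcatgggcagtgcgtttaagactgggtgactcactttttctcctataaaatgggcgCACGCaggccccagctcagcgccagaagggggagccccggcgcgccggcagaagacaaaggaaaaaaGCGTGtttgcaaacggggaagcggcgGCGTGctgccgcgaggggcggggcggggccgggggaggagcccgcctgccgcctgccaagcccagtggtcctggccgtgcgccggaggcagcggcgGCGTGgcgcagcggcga
SLC29A4: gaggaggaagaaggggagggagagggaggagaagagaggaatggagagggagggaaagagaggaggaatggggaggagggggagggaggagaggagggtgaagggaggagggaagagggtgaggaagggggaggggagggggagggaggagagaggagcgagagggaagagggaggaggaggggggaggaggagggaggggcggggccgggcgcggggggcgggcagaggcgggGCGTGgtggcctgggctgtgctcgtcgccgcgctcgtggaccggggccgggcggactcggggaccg

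Matches were present in the windows of genes that fell, rose or were not called. SLC28A1 held 1 match, on the opposite strand, starting 152 bases before the gene start. SLC29A1 held 2 overlapping matches, 1 on each strand, at the far end of the window. A second RefSeq window of SLC29A1, starting at position 44223345, held none of these letters. SLC29A3 held 4 matches, all of the GCGTG form, and SLC29A4 held 1 that began 16 bases before the start. At least 1 match is common: 48.4% of 35116 windows of this length and 54.7% of 22199 windows of protein-coding genes held one, and 5.50% of the latter held 4 or more. The GC content was 54.0% in the SLC28A1 window, against 74.7% for SLC29A1, 68.7% for SLC29A3 and 72.0% for SLC29A4. RefSeq windows were matched for 4 of the 7 transporters, not for SLC28A2, SLC28A3 and SLC29A2.

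SLC28A1 encodes CNT1, the sodium-coupled carrier of pyrimidine nucleosides such as cytidine, thymidine and uridine. Its RNA in the polysome fractions was 9.85-fold lower with PT2399. The gene (ENSG00000156222; chromosome 15, 84884662 to 84975649) had a mean of 179.3 normalized counts, and its level in treated cells was 10.2% of the vehicle level, with an interval of 7.46% to 13.8%. On the log2 scale it fell by 3.30 (SE 0.23, interval -3.74 to -2.86, adjusted p = 7.49e-46). The mean and the fold change together imply 325.5 normalized counts a library in vehicle and 33.1 in PT2399, so that most of its reads lay in the vehicle libraries. Among 12219 tested genes with a mean of at least 100, none had a lower log2 fold change. Over all tested genes it stood at rank 8 from the lowest, and the 7 genes below it had means of at most 92.4, with 4 of the 7 called. The genes nearest to it in log2 fold change, among called genes with a mean of at least 100, were FSIP2 at -2.66 (SE 0.83), the glucose transporter gene SLC2A1 at -2.45 (SE 0.06) and the insulin receptor substrate gene IRS2 at -2.45 (SE 0.06).

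The tested genes on either side of SLC28A1 were not called. ALPK3, an alpha-kinase gene of heart and skeletal muscle that ends 11183 bases before it, had a log2 fold change of -0.60 (SE 0.38, adjusted p = 0.276) at a mean of 48.9 normalized counts. PDE8A, a cAMP phosphodiesterase gene that starts 4818 bases after it, had -0.07 (SE 0.06, adjusted p = 0.430) at a mean of 3392. RefSeq places 3 pseudogenes within the SLC28A1 locus, none of them a row of the table.

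SLC28A2 and SLC28A3 were barely detected. SLC28A2 encodes CNT2, which prefers purine nucleosides, and SLC28A3 encodes CNT3, which takes purine and pyrimidine nucleosides alike. SLC28A2 (ENSG00000137860; chromosome 15, 45252234 to 45277846) had 7.31 normalized counts summed over all 6 libraries. SLC28A3 (ENSG00000197506; chromosome 9, 84275457 to 84368727) had 13.5. Their errors were too wide to give a direction, with an interval of the log2 fold change from -2.40 to 7.70 for SLC28A2 and an SE of 1.64 around -1.25 for SLC28A3. The implied sums over 3 libraries were 1.00 in vehicle and 6.30 in PT2399 for SLC28A2, and 9.51 and 4.00 for SLC28A3. A change of either gene was not detectable at this depth. RefSeq places the long noncoding RNA gene SLC28A2-AS1 across the SLC28A2 locus and SLC28A3-AS1 over 11967 bases of the SLC28A3 locus, and neither is a row of the table. In its family, SLC28A1 alone had a tested level in these cells.

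**Figure D1:**
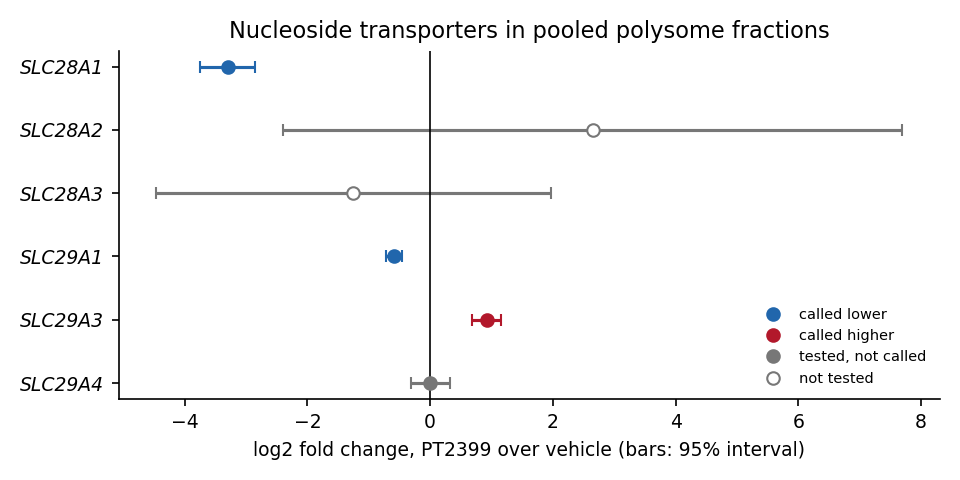
Log2 fold change of PT2399 over vehicle (x axis) for 6 of the 7 transporters, each point an estimate over 3 libraries a group and each bar its 95% interval; SLC29A2 is left out because it had under 3 normalized counts in all. SLC28A1 lies at -3.30 and SLC29A1 at -0.59, both below 0, SLC29A3 lies at 0.92, above it, and the intervals of SLC29A4 and of the untested SLC28A2 and SLC28A3 include 0.

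SLC29A1 encodes ENT1, the widely expressed equilibrative transporter of the cell surface. It was the most abundant of the 7 transporters, and it fell to 66.6% of its vehicle level. The gene (ENSG00000112759; chromosome 6, 44219615 to 44234142) had a mean of 2362 normalized counts, which was higher than that of 72.0% of tested genes. The interval of the treated level ran from 60.9% to 72.8% of the vehicle level. The log2 fold change was -0.59 (SE 0.07, interval -0.72 to -0.46, adjusted p = 3.85e-17). The implied levels were 2835 normalized counts a library in vehicle and 1888 in PT2399. A lower log2 fold change was found in 5.81% of tested genes. Its neighbours were not called. TMEM63B, an ion channel gene on the side of lower coordinates, had -0.05 (SE 0.06, adjusted p = 0.630), and HSP90AB1, the cytosolic chaperone gene that starts 12052 bases beyond SLC29A1, had -0.04 (SE 0.04, adjusted p = 0.607).

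SLC29A3 encodes ENT3, a member of the family that resides in lysosomes and late endosomes and serves the release of nucleosides from them. It rose 1.89-fold, opposite in direction to SLC29A1 and SLC28A1. The gene (ENSG00000198246; chromosome 10, 71319259 to 71381423) had a mean of 456.9 normalized counts. Its level with PT2399 was 189.4% of the vehicle level (interval 160.2% to 224.0%), a log2 fold change of 0.92 (SE 0.12, interval 0.68 to 1.16, adjusted p = 2.71e-12). The implied levels were 315.7 normalized counts a library in vehicle and 598.1 in PT2399. A higher log2 fold change was found in 1.79% of tested genes. UNC5B, a netrin receptor gene 16395 bases away, had 0.77 (SE 0.42, adjusted p = 0.189) at a mean of 37.4 and was not called. PSAP, the gene of the lysosomal protein prosaposin and the nearest tested gene on the other side, lies 434875 bases away and had 0.12 (SE 0.05, adjusted p = 0.0786), also not called. RefSeq places the long noncoding RNA genes LOC105378353 and LOC124902445 over 7395 and 405 bases of the SLC29A3 locus. A small nucleolar RNA gene lies there too, and none of these is a row of the table.

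SLC29A4 encodes ENT4, also named the plasma membrane monoamine transporter, which carries serotonin and dopamine and, in acid surroundings, adenosine. It was the tested transporter that was not called. The gene (ENSG00000164638; chromosome 7, 5282943 to 5306912) had a mean of 492.3 normalized counts and a log2 fold change of 0.00 (SE 0.16, adjusted p = 0.999). The interval ran from 80.4% to 124.6% of the vehicle level, so changes of up to that size lie within the error. TNRC18, which overlaps the end of SLC29A4 by 102 bases in RefSeq, had a mean of 6352 normalized counts and a log2 fold change of 0.13 (SE 0.06, adjusted p = 0.105). The libraries were made with a kit that keeps the strand, but the sources used here do not state whether quantification used it, without which reads in that overlap cannot be told apart. WIPI2 at 0.04 (SE 0.07) and FBXL18 at 0.03 (SE 0.09), the nearest tested genes on either side without overlap, were not called.

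SLC29A2, which encodes the second cell-surface equilibrative transporter ENT2, was close to absent from the polysome fractions. The gene (ENSG00000174669; chromosome 11, 66362521 to 66372446) had a mean of 0.293, or 1.76 normalized counts summed over all 6 libraries. This is under a floor of 3 counts for both groups together, so no fold change is given. The nearest tested genes on either side were measured well above that level, B4GAT1 at a mean of 341.8 and MRPL11, a mitochondrial ribosomal protein gene, at 1132. RefSeq places the long noncoding RNA gene B4GAT1-DT over 1244 bases of the SLC29A2 locus, and it is not a row of the table.

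Set per kilobase of transcript, the transporters spanned about 4 orders of magnitude. Lengths are those of the canonical GENCODE transcript of each gene. The mean levels over 6 libraries were 1134 normalized counts per kb for SLC29A1, 202.5 for SLC29A3, 86.2 for SLC29A4 and 64.7 for SLC28A1. SLC28A3 at 0.454, SLC28A2 at 0.279 and SLC29A2 at 0.119 normalized counts per kb lay far below. In vehicle the implied levels of SLC29A3 and SLC28A1 lay close together, at 140.0 and 117.5 normalized counts per kb. With PT2399 they moved apart to 265.1 and 11.9, and SLC28A1 passed from above SLC29A4, at 86.1 in vehicle, to below it, at 86.2 in PT2399. No level of a single library is in the table, so neighbours in this order were not tested against each other.

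**Figure D2:**
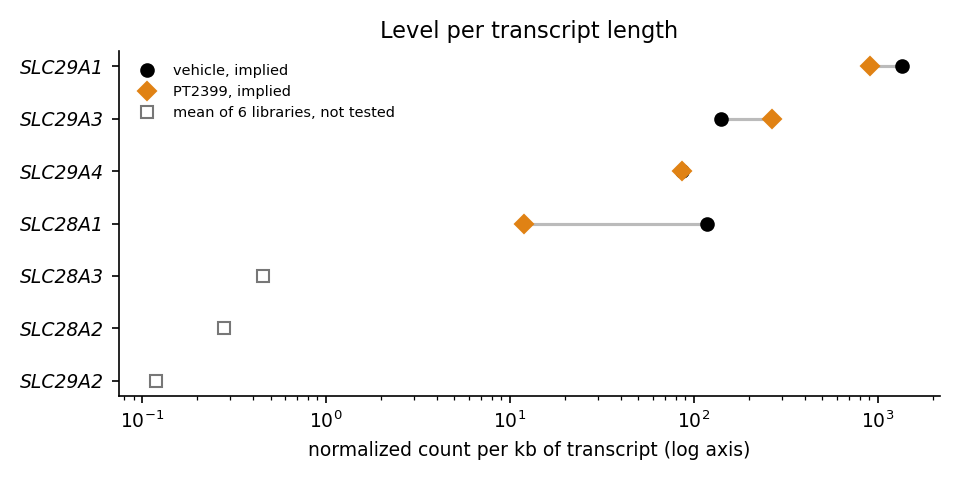
Normalized counts per kilobase of canonical transcript (x axis, log scale) for the 7 transporters, with circles for vehicle and diamonds for PT2399 as implied by the mean and the fold change, and open squares for the 6-library mean of the untested genes. SLC28A1 moves from 117.5 to 11.9 and SLC29A3 from 140.0 to 265.1, SLC29A1 stays highest at 1361 and 906.3, and the untested genes lie below 0.5.

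The tested transporters differed from each other in their response. Ordered by log2 fold change they ran SLC28A1, SLC29A1, SLC29A4 and SLC29A3, and 6 pairs can be formed from them. Taking the errors of different genes as independent, which was not tested, SLC29A1 lay 2.71 log2 units above SLC28A1 (interval 2.25 to 3.18). SLC29A4 lay 0.59 above SLC29A1 (interval 0.25 to 0.93), and SLC29A3 lay 0.92 above SLC29A4 (interval 0.52 to 1.32). Each of these intervals between neighbours in the order leaves out 0. The order was taken from these same estimates, so each difference is positive by construction, and the intervals were not adjusted for that choice.

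The SEs of the tested transporters stood on both sides of those of genes with a like mean. The SE of SLC28A1, 0.23, stood above the median of 0.20 for the 200 tested genes nearest to it in mean, and 31 of the 200 had a larger one. For SLC29A4 the SE of 0.16 stood above a median of 0.13, and only 12 of its 200 neighbours in mean had a larger one. SLC29A1 and SLC29A3 were among the more precise genes of their level, with 159 and 167 of 200 having a larger SE. The SE and the level imply a spread between libraries of a group of about 14.0% of the level for SLC28A1, 12.9% for SLC29A4, 9.26% for SLC29A3 and 5.20% for SLC29A1. Counting noise made up 46.7% of the squared SE for SLC28A1, whose reads were few in treated cells, 21.6% for SLC29A3, 14.0% for SLC29A1 and 10.8% for SLC29A4. These values rest on a spread that the authors' method draws towards genes of like abundance, and on relative depths that do not describe every gene. With equal depths for all libraries, tried after the data were seen, the implied spread was 14.2% for SLC28A1 and 12.9% for SLC29A4, and the counting share for SLC28A1 was 45.1%.

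**Figure D3:**
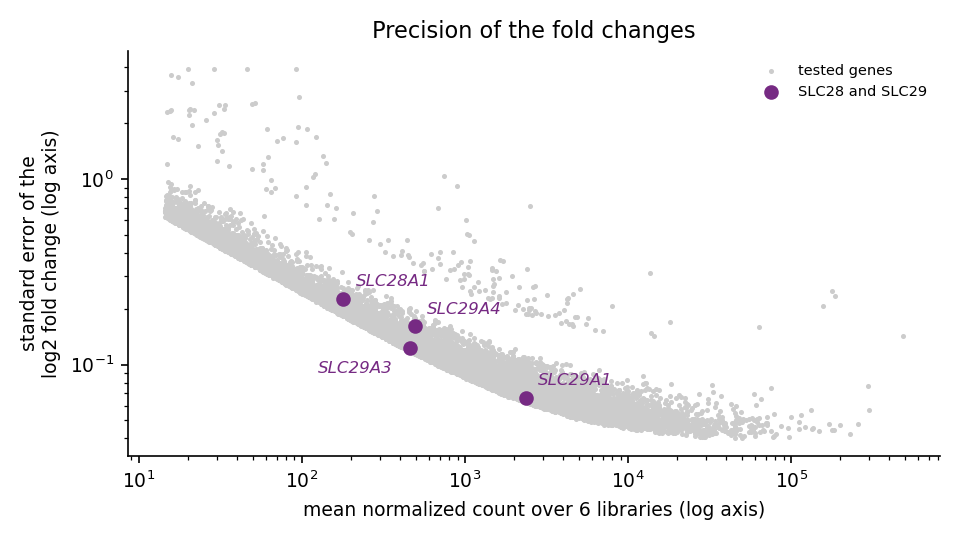
Standard error of the log2 fold change (y axis, log scale) against the mean normalized count over 6 libraries (x axis, log scale) for 15634 tested genes, with the 4 tested transporters in purple. SLC28A1 (SE 0.23) and SLC29A4 (SE 0.16) lie in the upper part of the cloud at their mean, and SLC29A1 (SE 0.07) and SLC29A3 (SE 0.12) in the lower part.

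Both families belong to the solute carriers, a large class of membrane transporter genes. SLC28A1 had the lowest log2 fold change among the tested solute carrier genes, the only ones ranked here. Of 339 solute carrier genes listed, 229 were tested and 75 (32.8%) were called, 43 higher and 32 lower. Over all tested genes 23.0% were called, 11.3% higher and 11.7% lower. The share called rises with level and solute carriers were not matched for level, so 32.8% cannot be read as a property of the class. Their median log2 fold change was 0.06 against 0.00 over all tested genes. After SLC28A1 the lowest were SLC2A1 and SLC7A5, a gene for uptake of large neutral amino acids, at -2.37 (SE 0.06). SLC29A1 stood at rank 12 from the lowest, between SLC8A1, a sodium-calcium exchanger gene, at -0.59 (SE 0.08) and SLC3A2, the gene of the heavy chain that pairs with SLC7A5, at -0.57 (SE 0.10). SLC29A3 stood at rank 10 from the highest, and SLC2A2, the gene of the glucose transporter GLUT2, headed that order at 2.38 (SE 0.08). SLC29A4, at 0.00, lay near the median.

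**Figure D4:**
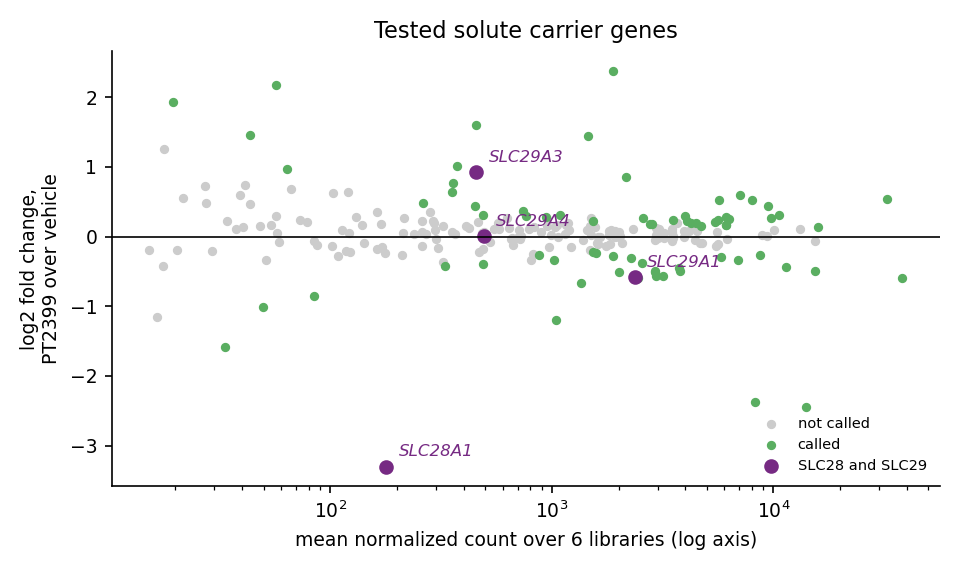
Log2 fold change of PT2399 over vehicle (y axis) against the mean normalized count over 6 libraries (x axis, log scale) for 229 tested solute carrier genes, called genes in green and the 4 tested nucleoside transporters in purple. SLC28A1 lies lowest of all at -3.30, and SLC29A3 at 0.92 lies in the upper margin.

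Inside the cell, nucleosides taken up are trapped by kinases and reused through salvage. Of 20 tested salvage genes 3 were higher, 2 lower and 15 not called (median 0.03). TK1, the cytosolic thymidine kinase of dividing cells, fell by 0.55 (SE 0.08, adjusted p = 2.79e-10), and UCK2, a kinase of uridine and cytidine, fell by 0.29 (SE 0.06, adjusted p = 7.70e-06). TK2, the mitochondrial thymidine kinase, rose by 0.60 (SE 0.14, adjusted p = 2.34e-04), so the cytosolic and mitochondrial forms changed in opposite directions. AMPD2, an AMP deaminase, rose by 0.24 (SE 0.06, adjusted p = 0.00137). HPRT1, which salvages hypoxanthine and guanine, at -0.11 (SE 0.07) and DCTD, a deaminase of dCMP, at 0.00 (SE 0.08) were not called.

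Enzymes that undo nucleotides within the cell also split. Of 6 tested intracellular nucleotidases 2 were higher, 1 lower and 3 not called (median -0.14). SAMHD1, which cleaves deoxynucleotides to nucleosides, fell by 0.57 (SE 0.06, adjusted p = 4.11e-20). NT5C3B rose by 0.20 (SE 0.06, adjusted p = 0.00979) and NT5C2, which acts on IMP and GMP, rose by 0.19 (SE 0.07, adjusted p = 0.0316), a gene not called with adjustment over every row with a p-value. NT5C3A at -0.08 (SE 0.08) and NT5C at -0.20 (SE 0.17) were not called.

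Outside the cell, nucleotides are broken down to nucleosides before uptake. Of 5 tested genes listed with this step 2 were higher and 3 not called (median 0.27), and 7 more had levels too low for an adjusted p. DPP4, a surface peptidase that binds adenosine deaminase, breaks down no nucleotide itself. It rose by 0.43 (SE 0.05, adjusted p = 1.06e-16) at a mean of 24955 normalized counts. NT5E, the ecto-nucleotidase CD73 that yields adenosine from AMP, was the only called gene of the breakdown itself. It rose by 0.27 (SE 0.10, adjusted p = 0.0415), but was not called with adjustment over every row with a p-value. ENPP1 at -0.32 (SE 0.14, adjusted p = 0.0744) and ENTPD2 at -0.92 (SE 0.37, adjusted p = 0.0534) were not called, though ENTPD2 passed with adjustment over protein-coding genes alone (adjusted p = 0.0466). The adenosine receptors ADORA1 at 0.02 (SE 0.07) and ADORA2A at 0.28 (SE 0.20) were the tested receptors, and neither was called (adjusted p = 0.877 and 0.352) or had an unadjusted p under 0.05.

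New synthesis of nucleotides runs by a purine and a pyrimidine route. Of 13 tested genes of purine synthesis 1 was higher, 1 lower and 11 not called (median -0.01). PPAT, the first committed enzyme of that route, rose by 0.21 (SE 0.06, adjusted p = 0.00575), and GMPS, which makes GMP, fell by 0.17 (SE 0.05, adjusted p = 0.0109). PAICS at -0.08 (SE 0.06) and GART at -0.04 (SE 0.06) were not called. Of 5 genes of pyrimidine synthesis 2 were lower and 3 not called (median -0.16). CAD, the enzyme of its first steps, fell by 0.25 (SE 0.06, adjusted p = 5.65e-04) and CTPS2, a CTP synthase, fell by 0.30 (SE 0.08, adjusted p = 0.00321), whereas CTPS1 at -0.06 (SE 0.07) and UMPS at -0.16 (SE 0.07, adjusted p = 0.0807) were not called.

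Other carriers of nucleobases and nucleotides moved in both directions. Of 7 tested in this list, which also includes SLC23 vitamin C transporter genes, 3 were higher, 1 lower and 3 not called (median 0.00). SLC43A3, a purine nucleobase transporter, fell by 0.56 (SE 0.07, adjusted p = 8.94e-13), close in size to SLC29A1. The efflux pump genes ABCC5, at 0.42 (SE 0.08, adjusted p = 1.73e-06), and ABCC4, at 0.15 (SE 0.05, adjusted p = 0.0157), rose, as did SLC25A36, a mitochondrial carrier of pyrimidine nucleotides, at 0.19 (SE 0.06, adjusted p = 0.00682). SLC23A2, a vitamin C transporter gene, at -0.09 (SE 0.06) and PANX1, an ATP-releasing channel gene, at 0.00 (SE 0.07) were not called.

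Organic cation transporters, whose substrates overlap with those of ENT4, were looked at beside SLC29A4. Of 4 tested 1 was higher and 3 not called (median 0.04). SLC22A3, which encodes OCT3, rose by 0.76 (SE 0.14, adjusted p = 1.09e-06). SLC22A5, a carnitine transporter gene, at -0.14 (SE 0.09) and SLC47A1 at -0.14 (SE 0.28) were not called. Against 23.0% of all tested genes, the share called was 25.0% of 20 salvage genes and 15.4% of 13 purine synthesis genes. It was 57.1% of the 7 in the other carriers list, 50.0% of 6 intracellular nucleotidases and 40.0% of the 5 in the extracellular list. It was 40.0% of 5 pyrimidine synthesis genes, 25.0% of 4 organic cation transporters and none of 2 adenosine receptors. Over all tested genes the share called rose with level, from 5.92% at means under 100 to 18.2% from 100 to 1000. It was 32.3% from 1000 to 10000 and 48.5% above that. The lists were not matched for level, so a share above 23.0% cannot be read as a property of a list.

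**Figure D5:**
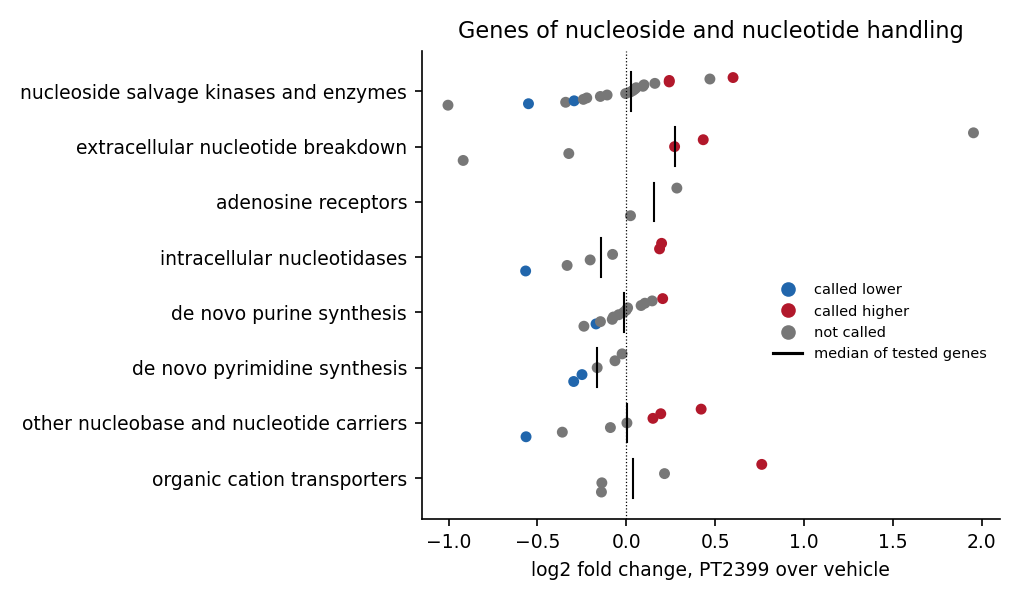
Log2 fold change of PT2399 over vehicle (x axis) for the tested genes of 8 lists of nucleoside and nucleotide handling (y axis), 1 point a gene, blue for called lower, red for called higher and grey for not called, with a black line at each list's median. Medians lie between -0.16 and 0.27, and points of both colours occur in 4 of the lists.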

How the data were processed

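Polysome-associated RNA of 6 OSRC-2 libraries, 3 with PT2399 and 3 with vehicle, was compared, with groups from the sample titles. The PT2399 dose is 2 mM in a sample label and 2 µM in the protocol and the paper, and the latter is used. Per the submitters' processing notes, reads were aligned to hg38 with STAR 2.7.3a, quantified with Salmon, whose version was not found, and compared with DESeq2 1.22.1. The deposited mean is a signal, counts normalized by the authors and averaged over 6 libraries. The deposited log2 fold change, unshrunken, its SE and the deposited Wald score, their quotient, come from the authors' comparison. The deposited p-value is from the authors' Wald test (two-sided), and its Benjamini-Hochberg form is empty for 14711 low or untestable rows. These columns are the authors' own comparison and were described, not refitted, because the table holds no column of a single library.

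Implied group levels were solved from the mean and the fold change, taking the fitted level of a group as its mean. The implied spread was solved from the SE with the 6 recovered relative depths. Functions were tested on simulated data. Coordinates and promoter windows are from RefSeq on GRCh38.p14, to which 21569 rows matched, and transcript lengths from GENCODE 44. Total counts per library are unknown, as are batches and the agreement of replicates. On their independence the samples carry a label of biological replicate, and the paper describes n in its cell culture work as separate biological experiments. A total of 25 rows carry a date for a symbol and stay in the counts.

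The genes named are the 7 members, up to 4 called and 2 uncalled genes of each of 8 lists, the nearest tested neighbours of each tested member and the 3 genes nearest to SLC28A1. Other solute carriers, the HIF check genes, TNRC18 and the neighbours of SLC29A2 were named after their values were seen. One gene of the organic cation list is not reported here. The members and lists were chosen with earlier results of these data known. Alternatives were a stricter threshold, adjustment over other sets of rows, centring on the median and a limit on the fold. Calculations ran in Python 3.11.15 with numpy 2.4.6, pandas 2.3.3, scipy 1.17.1 and matplotlib 3.10.9.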

Additional observations from a re-analysis of the deposited data

How the results depend on the processing

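The calls of SLC28A1, SLC29A1 and SLC29A3 did not depend on how p-values were adjusted. At a threshold of 0.01 on the adjusted p, and with adjustment over all rows with a p-value, over rows with a mean of at least 100, or over protein-coding genes, 3 members were called each time. With a limit of 1 on the absolute log2 fold change as well, chosen after seeing the data, 1 member was called, SLC28A1 (2.05% of all tested genes pass that rule). Subtracting the median of all tested genes, 0.00, kept the direction of each called member and moved no estimate by as much as its SE. Of 32 counts over the lists of related genes, 28 stayed within 1.5 times. Against 2 as deposited, the extracellular list had 1 called gene at the stricter threshold and 1 with adjustment over all rows. It had 3 with adjustment over protein-coding genes. The purine synthesis list had 1 in place of 2 at the stricter threshold. With adjustment over all rows the organic cation list had 2 in place of 1, the added gene being SLC47A2. That gene has a deposited p-value, but its level was too low for a deposited adjusted p.

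No paired analysis was possible because the table holds no column of a single library. For the same reason ratios of group means, added constants and leaving out each library in turn were not run, and whether 1 library decides a fold change is unknown. Depth limits SLC28A2, SLC28A3 and SLC29A2, which had 1.76 to 13.5 normalized counts over all 6 libraries.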
